A study of Rattus norvegicus with 98 samples.

Results

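H3K27ac peak lists from the ventral tegmental area (VTA) of fluoxetine-treated and control rats were compared, as the 4 libraries that the sample titles assign to Sham VTA and FT VTA, replicates 1 and 2. They are 4 of the 98 samples of the series, of which 94 have a peak list. The animals were male Long-Evans rats, 2 months old at the start. FT rats took fluoxetine in their drinking water, 18 mg per kg of body weight a day, over 6 weeks, and Sham rats drank water without the drug. They were naive animals, with no model of depression or stress applied. Punches of frozen sections were pooled over several animals for each replicate, the same pools supplied every region of a replicate, and all samples met the same lot of antibody. The 2 Sham and 2 FT libraries are therefore 2 pools per treatment, and single animals cannot be resolved.

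Acetylation of lysine 27 on histone H3 marks active promoters and enhancers, so a list of H3K27ac peaks is a map of the regulatory elements in use in a tissue. The VTA is a midbrain nucleus whose dopamine neurons project to the nucleus accumbens and the prefrontal cortex and signal reward and motivation. It also holds GABA and glutamate neurons and glia, and it receives serotonin fibres from the raphe nuclei. Fluoxetine blocks the serotonin transporter and so prolongs the action of serotonin at such fibres.

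Each line of a list is a peak with its position, its width, the highest filter score within it (maxScore) and a normalised tag count rounded to whole numbers. The lists hold no reads and the sequencing depth behind them is unknown, so a difference in depth or enrichment cannot be told apart from more acetylated sites. A punch is also a mixture of cells, so more cells of a type and more acetylation per cell cannot be told apart. An annotation of the Rn5 genome was not used here: positions are given without gene names, and marker genes of dopamine neurons could not be looked up. The label was instead compared with the other regions by the overlap of occupied windows among the 19378 peaks of highest maxScore in each library, as many as the shortest list of any region holds. The Jaccard index, the shared share of all windows occupied in either library, was 0.819 between the 2 FT libraries and 0.726 between the 2 Sham libraries. For 3 of the 4 libraries the region with the highest mean index was VTA. The exception was Sham replicate 1, with 0.758 for Snt (nucleus of the solitary tract), 0.753 for VTA and 0.753 for Raphe. For Sham replicate 2 the values were close as well, with 0.704 for VTA and 0.703 for Snt. It was only the 13th nearest library to Sham replicate 1, behind both FT VTA libraries. Sham replicate 2 had the fewest peaks and the lowest scores of the 4, and the main comparisons are also given without it. A difference between the punches of the pools and an effect of the drug cannot be told apart in these lists.

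The FT lists were longer and covered more of the genome than the Sham lists. Sham replicates 1 and 2 held 43051 and 32828 peaks, and FT replicates 1 and 2 held 46592 and 48259. Both FT lists were thus longer than both Sham lists, and the gap between the Sham lists was wider than that between the FT lists. The means were 37940 ± 7229 peaks for Sham and 47426 ± 1179 for FT (SD, n = 2 each), a log2 ratio of 0.32. Peaks covered 70.9 and 51.7 Mb in Sham and 77.3 and 81.8 Mb in FT, a log2 ratio of the means of 0.38. With 2 libraries against 2, the two-sided exact permutation test cannot go below p = 0.333, and it gave p = 0.333 for both measures. Without Sham replicate 2 the log2 ratios were 0.14 for peak number and 0.17 for covered length, and without Sham replicate 1 they were 0.53 and 0.62.

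**Figure D1:**
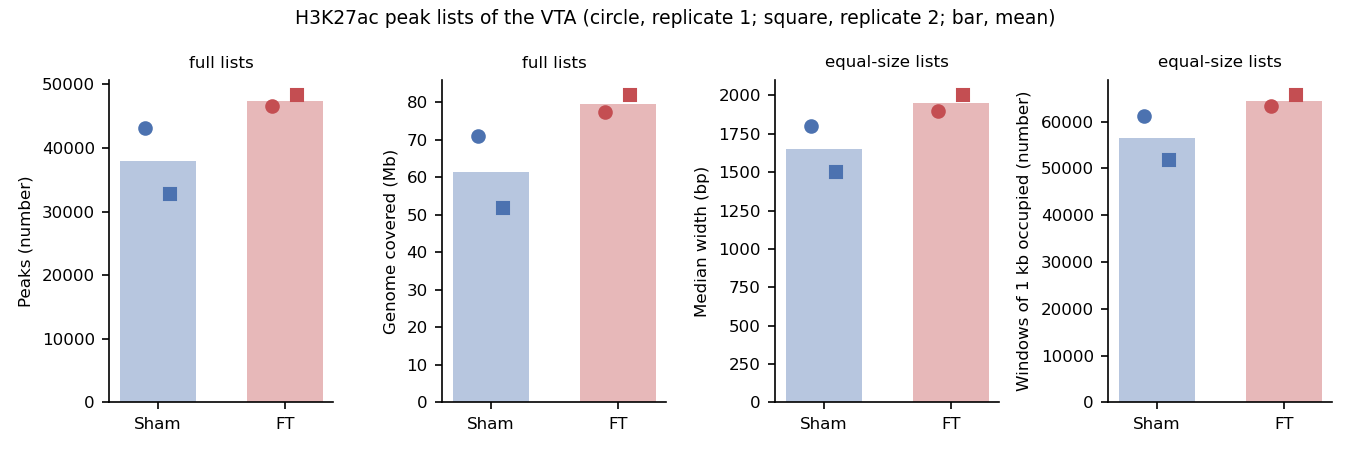
Number of peaks and covered genome (Mb) on full lists, and median peak width (bp) and occupied windows on equal-size lists, for each VTA library; circles are replicate 1, squares replicate 2, and bars the mean of 2 libraries. In each panel both FT points lie above both Sham points, and Sham replicate 2 is lowest, with 32828 peaks and 51.7 Mb.

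FT peaks were also wider. The median width on full lists was 1600 and 1500 bp in Sham and 1700 bp in both FT libraries. To remove the difference in list length, each list was reduced to its 32828 peaks of highest maxScore, the length of the shortest list, here called equal-size lists. On these the median width was 1800 and 1500 bp in Sham and 1900 and 2000 bp in FT, a log2 ratio of the means of 0.24 (exact permutation p = 0.333, the smallest possible) that was 0.12 without Sham replicate 2. The groups did not overlap on either kind of list. Among full lists restricted to peaks with a −log10 p of at least 6, the log2 ratio of the median widths was 0.04, with an exact permutation p of 1.

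Width was then followed at the same places. Overlapping peaks of the 4 lists were merged into 56814 elements, of which 28997 (51.0%) had a peak in every list. At these shared elements the median width was 1900 and 1600 bp in Sham and 2000 bp in both FT libraries. Both FT libraries were wider than both Sham libraries at 10717 shared elements (37.0%), and both Sham libraries were wider at 413 (1.42%). As a null, the same count was made for splits that ignore treatment. Sham replicate 1 and FT replicate 2 were the wider pair at 5366 elements, the replicate 1 libraries at 1771, the replicate 2 libraries at 653, and Sham replicate 2 with FT replicate 1 at 203. The median log2 width difference between FT and Sham was 0.13. Within replicate 1 it was 0, and within replicate 2 it was 0.23. Between Sham replicate 1 and Sham replicate 2 the median difference was 0.16, larger than that between the treatments. Leaving out Sham replicate 2 gave 0.04, and leaving out Sham replicate 1 gave 0.21. Without Sham replicate 2, both FT libraries were wider at 11562 elements (39.9%) and the remaining Sham library at 3952 (13.6%).

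Occupancy was compared in windows of 1 kb, counting a window for a library where its peaks fill 50% or more of the window. A window separates the treatments when both libraries of one are occupied and neither of the other is. On full lists 97020 windows were occupied in at least 1 library and 45183 in all 4. FT alone occupied 8573 windows (8.84% of 97020) and Sham alone 447 (0.461%), so 95.0% of the windows that separated the treatments were on the FT side. The same rule applied to the replicate number, with both treatments on each side, gave 2337 windows, and the crossed split gave 3442. The treatment split was the largest of the 3 possible, with a log2 ratio of 1.64 to the mean of the other two, and p = 0.333 by exact permutation is the smallest that 3 splits allow.

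Equal-size lists kept the direction with a smaller lead for FT. Of 80304 windows occupied in at least 1 library, FT alone occupied 4909 (6.11%) and Sham alone 1025 (1.28%), against 2075 for the replicate split and 2415 for the crossed split. The log2 split ratio was 1.40 and 82.7% of the separating windows were on the FT side. Of the 4909 FT windows, 3806 (77.5%) also separated the treatments on full lists. The other 1103 were occupied in the full list of Sham replicate 1, and none was occupied in that of Sham replicate 2, which is the shortest list and is the same in both forms. Of the 1025 Sham windows, 259 (25.3%) separated on full lists, and 484 were occupied in the full lists of both FT libraries.

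How many windows separated the treatments and which treatment held them behaved differently. Among the 10000 best peaks of each list, FT alone occupied 1310 windows and Sham alone 909, against 853 for the replicate split and 662 for the crossed split, so the log2 split ratio was 1.55 but only 59.0% were on the FT side. When each list was instead reduced to the same covered length, 2767 windows were on the FT side and 1934 on the Sham side (58.9% FT), with 1687 and 1882 in the other 2 splits. When every peak of the equal-size lists was replaced by its centre, the numbers were 2167 and 1355 (61.5% FT) against 2242 and 1906. The excess of the treatment split over the other splits was therefore present in each of these forms, with log2 ratios from 0.76 to 1.64, whereas the lead of FT shrank once list length or peak width was held equal.

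**Figure D2:**
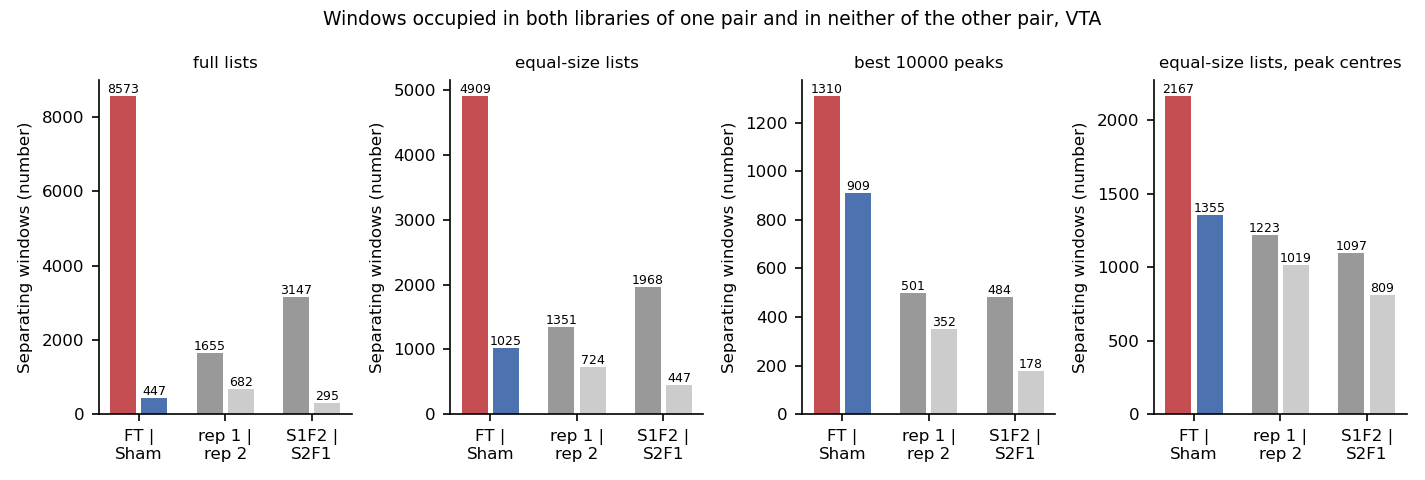
Number of 1 kb windows occupied in both libraries of one pair and in neither of the other, for the treatment split (red, FT; blue, Sham) and for the replicate and crossed splits (grey; S1F2 is Sham replicate 1 with FT replicate 2), in 4 forms of the lists. The 2 treatment bars together exceed both grey pairs in every panel, and the red bar leads by most on full lists (8573 against 447).

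The share of FT was lower when either Sham library was left out. Without Sham replicate 2, FT held 56.3% of the separating windows on equal-size lists and 66.1% on full lists. Without Sham replicate 1 the shares were 74.1% and 89.8%. A Sham window then needs only the remaining Sham library, while an FT window still needs both FT libraries. These shares therefore follow another rule than those of all 4 libraries. Leaving out either FT library made the treatment split no larger than the others on equal-size lists, with log2 ratios of -0.058 without FT replicate 1 and -0.054 without FT replicate 2. In these 3-library comparisons Sham replicate 2 is set against the rest in one of the competing splits. Across the 21 regions with 2 libraries per treatment, the log2 split ratio on equal-size lists ran from -0.48 to 3.15 with a median of 0.998, and VTA was the 9th highest.

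The separating windows of FT and Sham differed in where they lay. On equal-size lists 1758 FT windows (35.8%) adjoined a window occupied in all 4 libraries, as against 140 Sham windows (13.7%). A peak of a Sham list touched 53.8% of the FT windows without filling them enough to count, and a peak of an FT list touched 18.5% of the Sham windows. Windows more than 10 kb from any peak of the other treatment made up 29.0% of the FT windows and 39.0% of the Sham windows. In the null splits the adjoining share was 32.4% and 35.5% for the replicate split and 45.5% and 21.9% for the crossed split, so a flank position was not particular to the treatment split.

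Assigned to elements, 2191 of the 4909 FT windows (44.6%) fell in an element with a peak in all 4 full lists, 1968 (40.1%) in an element of 3 lists and 750 (15.3%) in an element of FT lists alone. For the 1025 Sham windows these were 779 (76.0%), 208 (20.3%) and 38 (3.71%). Most windows that separated the treatments on equal-size lists thus lay in elements where a library of the other treatment also had a peak. On full lists, 4478 of the 8573 FT windows (52.2%) lay in elements of FT lists alone. The FT windows were spread over the 20 autosomes and X, from 93.0 per 1000 windows occupied in all 4 libraries on chromosome 2 to 144 on chromosome X. The Sham windows were fewest on chromosome 16, with 12.5 per 1000.

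Adjoining windows that separated the treatments on both kinds of list formed 3496 FT loci and 257 Sham loci. They were short: 308 FT loci and 2 Sham loci had more than 1 window, and none exceeded 3. The longest lay at chr9:45218001-45221000, where peaks covered none of the locus in either Sham library and 2500 and 2400 bp of it in the FT libraries. Its FT peaks ranked at the 52.9th and 53.9th percentile of maxScore in their lists, and the nearest Sham peak was 8382 bp away. A second FT locus of 3 windows, chr10:69369001-69372000, was covered over 2600 and 2603 bp in FT and not at all in Sham, whose nearest peak was 223711 bp away. These 2 loci were occupied in 18 and 20 of the 24 other regions. At chr6:118743001-118745000 the FT peaks covered 1773 and 1776 bp and Sham none, with the nearest Sham peak 9617 bp away, and all 24 other regions were occupied there.

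The next 2 FT loci by the same rule were edges of shared elements. At chr13:55001001-55003000 Sham peaks covered 700 and 800 bp and FT peaks 1507 and 1600 bp, and at chr12:13878001-13880000 the values were 122 and 600 bp in Sham against 2000 bp in both FT libraries. Among Sham loci, chr8:33327001-33329000 was covered over 1400 and 1600 bp in Sham and not in FT, with the nearest FT peak 13137 bp away and 5 other regions occupied. At chr1:39398001-39400000 the Sham libraries covered 1300 and 1200 bp, FT replicate 1 covered 600 bp and FT replicate 2 none. The remaining 3 Sham loci, each of 1 window, were strong peaks in all 4 lists, filling more than 50% of the window in Sham and less in FT. At chr1:271451001-271452000, coverage was 540 and 584 bp in Sham and 310 and 475 bp in FT. The other 2 were chr18:26727001-26728000, with 535 and 509 bp against 473 and 444 bp, and chr5:67381001-67382000, with 514 and 532 bp against 434 and 436 bp.

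Elements that only one treatment had were weak. The 4695 elements with a peak in both FT lists and no Sham list had a median of 12.8 for the lower of their 2 maxScore percentiles, and 30 of them exceeded the 50th percentile in both lists. The 260 elements of both Sham lists and no FT list had a median of 6.88, and none exceeded the 50th percentile in both. As counts for the null, 912 and 243 elements were found in the lists of replicate 1 or replicate 2 alone, and 1502 and 151 in the crossed pairs. The strongest of these were chosen after their values were seen. Among FT elements, chr4:243820311-243822045 reached the 59.2nd and 57.2nd percentile (maxScore 145 and 139), with the nearest Sham peak 10018 bp away. It was occupied in 11 of 45 Sham libraries and 23 of 45 FT libraries of other regions. The Sham regions were arc, VMH, PVN and LH (lateral hypothalamus), Raphe and Snt of the brainstem, and dorDG and venDG (dorsal and ventral dentate gyrus). The next 4 were chr17:86190216-86191915, chr4:190093611-190095545, chr15:62633726-62635501 and chr5:140644265-140645966. They were occupied in 29, 6, 4 and 19 of the 45 Sham libraries and in 34, 17, 11 and 28 of the 45 FT libraries. FT lists were longer than Sham lists in most regions (median log2 ratio of peak number 0.28 over 21 regions). The share over all FT elements was not counted, so no direction is read from these 5. The strongest Sham element, chr16:58531738-58533128, reached the 39.4th and 32.4th percentile (maxScore 82.5 and 58.3), lay 19751 bp from the nearest FT peak, and was occupied in 34 of 45 Sham and 13 of 45 FT libraries elsewhere. The next 4, chr6:112634718-112635917, chr14:34612606-34614205, chr18:14562736-14564235 and chr19:67746402-67746931, were occupied in 12, 7, 7 and 5 Sham libraries and in 20, 6, 9 and 3 FT libraries, with no common direction.

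Nearly all separating windows were active in other regions. Of the 4909 FT windows of the equal-size lists, 4896 (99.7%) were occupied in the full list of at least 1 library of the 24 other regions, in a median of 18 regions. Of the 1025 Sham windows, 1024 (99.9%) were occupied elsewhere, in a median of 13 regions. Windows occupied in all 4 VTA libraries had a median of 24 regions, the full number. When the other regions were restricted to their Sham libraries, 4858 of the FT windows were still occupied. This was not particular to the treatment split: in the replicate and crossed splits the rounded share of windows occupied elsewhere was 99.9% or more, in a median of 15 or 16 regions. On full lists 8515 of the 8573 FT windows (99.3%) and 445 of the 447 Sham windows were occupied elsewhere.

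Only 5 FT loci and 1 Sham locus were occupied in no other region. The 3 FT loci of highest maxScore among them were chr3:145060001-145061000, chr14:28468001-28469000 and chrX:128710001-128711000, each of 1 window. Sham peaks covered 401 and 111 bp of the first, 394 and 295 bp of the second and 235 and 426 bp of the third, and FT peaks covered between 501 and 612 bp of each. The Sham locus was chr10:81609001-81610000, covered over 811 and 503 bp in Sham and 114 and 403 bp in FT. Every one of these 4 loci was thus a shared peak that straddled the limit of occupancy, and none was a site with peaks of 1 treatment alone.

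The regions in which the separating windows were active differed between FT and Sham windows. To see this, each window was looked up in the Sham libraries of the other regions, reduced to 19378 peaks each. FT windows were most often occupied in arc, the arcuate nucleus of the hypothalamus (40.2%), followed by InsularCortex (26.5%), CMA, the centromedial amygdala (26.3%), VMH, the ventromedial hypothalamus (25.3%), venDG, the ventral dentate gyrus (24.5%) and PVN, the paraventricular nucleus (22.8%). Sham windows were rarely occupied in the same lists, in 4.20% of cases in arc, 2.98% in VMH and 4.10% in PVN. The Sham windows also lay in weaker peaks, with median maxScore percentiles of 35.8 and 24.9 in the Sham libraries. For the FT windows these were 49.1 and 50.1 in the FT libraries. The part of peak strength in the contrast was not tested. In the replicate and crossed splits arc held between 8.05% and 20.4% of the windows, and of the windows of all 4 VTA libraries it held 63.2%. The regions that most often held Sham windows were BNST, the bed nucleus of the stria terminalis (12%), Snt (11.9%), Raphe (9.66%) and PAG, the periaqueductal grey (9.37%). Snt, Raphe and PAG held more of the FT windows, at 15.0%, 13.8% and 13.7%, so on these lists Sham windows were not more often those of the brainstem. The value for arc rests on 1 Sham library, and that for VMH is the mean of 2. The order depended on list length. In the full lists of the other regions FT windows were occupied at 69.0% in arc, 51.7% in InsularCortex, 50.5% in Snt, 49.5% in Raphe, 47.4% in PVN and 45.1% in VMH. Sham windows were occupied there at 83.7% in Snt, 80.8% in Raphe and 26.0% in arc.

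The windows that separated the treatments among the 10000 best peaks were looked up in the same lists of 19378 peaks. Of the 1310 FT windows of the 10000 best peaks, 81.6% were occupied in Sham arc, 72.1% in VMH and 75.3% in Sham Raphe. Of the 909 Sham windows, 21.9% were occupied in Sham arc, 59.8% in VMH, 97.0% in Sham Raphe and 97.9% in Sham Snt. Windows of all 4 VTA libraries were occupied at 81.1% in arc, 92.1% in VMH, 99.5% in Raphe and 99.6% in Snt. FT windows thus stood near this base in arc and below it in VMH, Raphe and Snt. Sham windows stood near it in Raphe and Snt and below it in arc and VMH. The ratio of the FT to the Sham share was 3.73 in arc and 1.21 in VMH, lower than on equal-size lists (9.58 and 8.51). FT peaks were wider than Sham peaks on full and equal-size lists. Widths among the 10000 best peaks are not given here, and the part of width in the contrast was not tested.

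**Figure D3:**
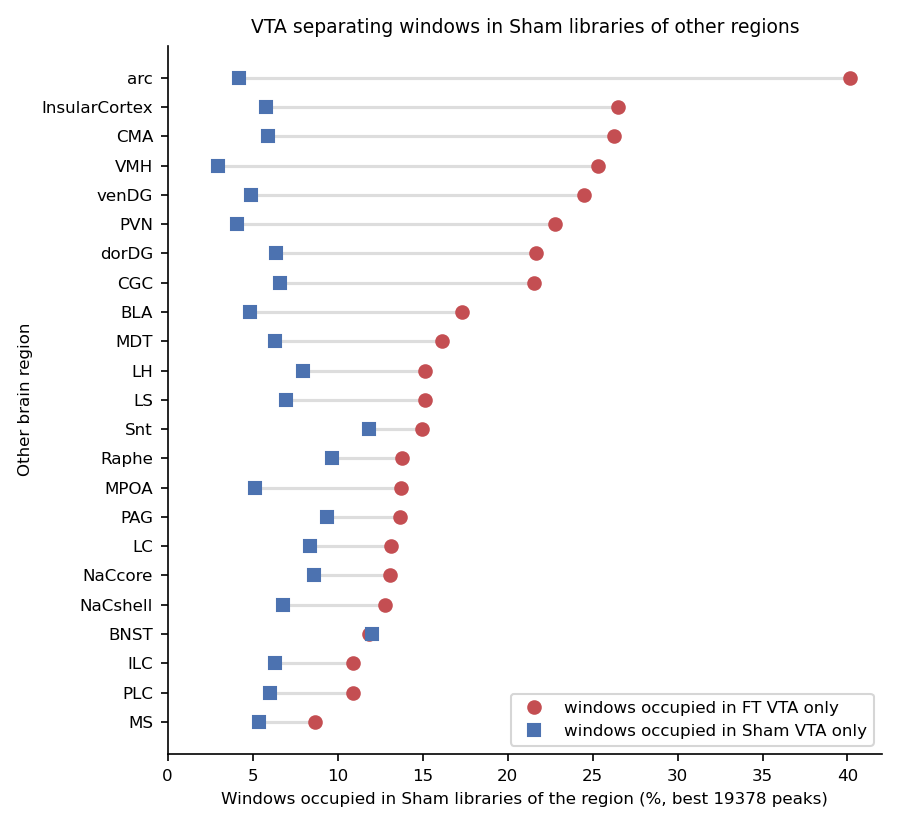
Percent of VTA separating windows (equal-size lists) occupied in the Sham libraries of each other region, with 19378 peaks per library; circles are the 4909 FT windows and squares the 1025 Sham windows, and values of regions with 2 Sham libraries are means. The circle for arc stands farthest right at 40.2%, its square is at 4.20%, and in BNST both lie near 12%; HB, whose Sham list holds almost none of these windows, is not drawn.

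To turn this around, sets of windows were defined from other regions alone, with no VTA list and no FT library, and their occupancy was read in each VTA library. These sets were chosen after the pattern above had been seen, and their libraries come from the same pools of Sham animals as Sham VTA. The hypothalamic set held 2634 windows occupied in Sham arc and VMH and in no Sham library of Raphe or Snt, among 19378 peaks per library. Its name refers only to arc and VMH. On lists of the same length Sham CMA held 62.4% of it and Sham venDG 53.1%, as against 59.1% in Sham PVN (1 library) and 42.4% in Sham LH. The set was thus not limited to the hypothalamus. On equal-size lists 66.7% and 44.0% of the hypothalamic set were occupied in Sham VTA and 89.2% and 91.5% in FT VTA. Both FT libraries were above both Sham libraries, with means of 55.4% ± 16.1 and 90.3% ± 1.58 (SD, n = 2 each, exact permutation p = 0.333, the smallest possible). The difference was 33.7 points on full lists and 34.5 points on lists of 19378 peaks, and 23.6 points without Sham replicate 2. Few windows of this set reached the 10000 best peaks, with 0.27% and 0.34% in Sham against 3.68% and 4.59% in FT.

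The brainstem set, 4533 windows occupied in Sham Raphe and Snt and in no Sham library of arc or VMH, did not show this. Its name refers only to Raphe and Snt. On lists of the length that defined it, Sham PAG held 11.6% of it and Sham LC (locus coeruleus) 24.8% (means of 2 libraries). Sham BNST held 52.0% and Sham LH 46.2%, while Sham PLC held 8.93%. The set was thus not limited to the brainstem. On equal-size lists 91.1% and 79.0% of the brainstem set were occupied in Sham VTA and 89.2% and 94.0% in FT VTA, and the groups overlapped. The difference of the means was 6.54 points, 0.51 without Sham replicate 2 and 12.6 without Sham replicate 1. Among the 10000 best peaks the order was the opposite of that of the hypothalamic set, at 24.8% ± 1.08 in Sham and 16.3% ± 1.36 in FT (SD, n = 2 each), and the groups did not overlap. Sets built in the same way from other regions followed the hypothalamic set where Raphe and Snt were excluded. Windows of Sham MPOA, the medial preoptic area, and PVN outside Raphe and Snt (748) were occupied at 81.8% and 61.8% in Sham VTA and 93.0% and 93.9% in FT VTA on equal-size lists. Windows of the prefrontal regions ILC and PLC outside Raphe and Snt (670) were occupied at 53.1% and 38.5% in Sham and 59.1% and 62.1% in FT. The groups did not overlap in either set, so the shift was not particular to windows of arc and VMH. Windows of PAG and Raphe outside arc and VMH (609) overlapped between the groups, at 89.8% and 62.1% in Sham and 79.8% and 86.2% in FT. Windows common to all 4 regions (19303) were occupied almost fully in every VTA library, at 97.8% or more. The 2 Sham libraries differed by 22.7 points for the hypothalamic set, so Sham VTA was not uniform in it.

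**Figure D4:**
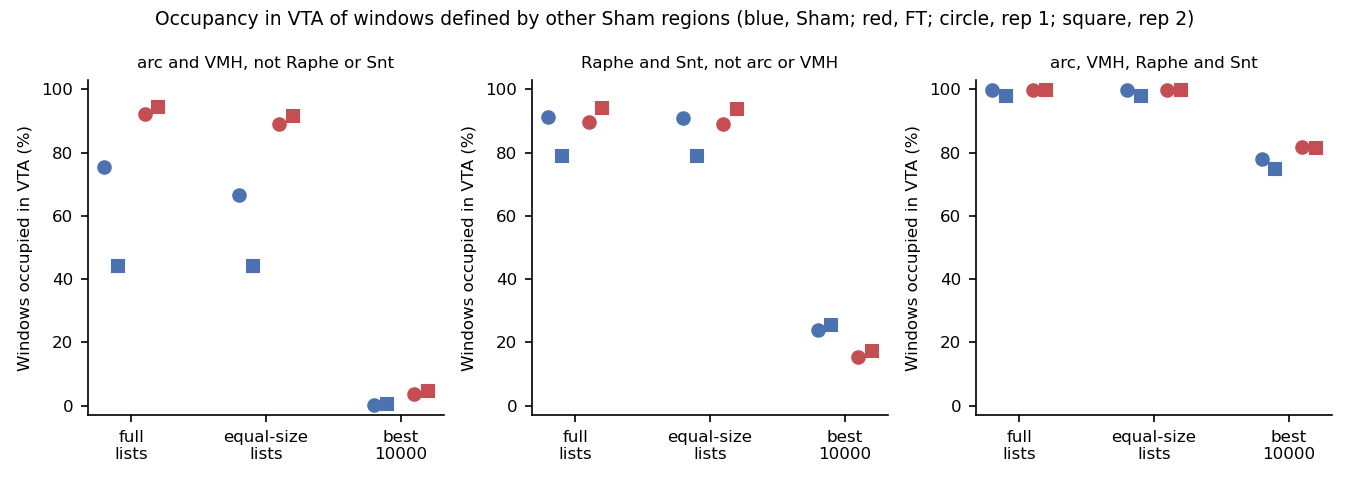
Percent of 3 window sets, defined by Sham libraries of other regions, that was occupied in each VTA library (blue, Sham; red, FT; circles, replicate 1; squares, replicate 2) on 3 forms of the lists. In the left panel the red points (89.2% and 91.5% on equal-size lists) lie above the blue (66.7% and 44.0%), and in the middle panel red lies below blue only among the 10000 best peaks.

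The same direction was seen in most other regions. The hypothalamic set was higher in FT than in Sham, without overlap, in 13 of 19 other regions on lists of 19378 peaks, with differences from -8.58 to 27.2 points among all 19 (the 4 regions that define the sets, and HB, were left out). The VTA difference of 34.5 points was the highest of these values, and whether it exceeded that of the next region was not tested. Among the 10000 best peaks it was 3.83 points, and 11 of the 19 regions had a larger one, up to 15.3. All regions were sampled from the same pools of animals. Likewise, 3080 of the 4909 FT windows (62.7%) separated FT from Sham in the FT direction in at least 1 of the 20 other regions with 4 libraries, and 630 (12.8%) in the Sham direction. The replicate and crossed splits of VTA gave between 34.0% and 51.4% in the FT direction. For windows occupied in all 4 VTA libraries the shares were 32.3% and 10.9%, and for the 1025 Sham windows they were 26.3% and 29.2%.

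The strength of peaks was compared at the 28997 shared elements, where every library has a value. limma on log2(tag count + 1), with quantile normalisation, called 0 elements at an adjusted p of 0.05, where the lowest adjusted p was 0.160. At an unadjusted p under 0.05 there were 1457 elements higher in FT (5.02%) and 1394 lower (4.81%). With maxScore in place of the tag count limma again called 0, with 2134 elements higher in FT (7.36%) and 2232 lower (7.70%) at an unadjusted p under 0.05. The p-values are two-sided, so with no difference a share of 0.05 is expected for both directions together. Both measures exceeded this share, and the excess was not tested.

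Ranks within a list described the same elements in another way, and here the treatment split exceeded the other splits. Both FT libraries stood more than 10 percentile points of tag count above both Sham libraries at 914 elements (3.15%), and Sham above FT at 863 (2.98%), together 1777 as against 444 for the replicate split and 330 for the crossed split. By maxScore the numbers were 1397 (4.82%) and 1284 (4.43%), together 2681 as against 673 and 460. The 2 directions were of about equal number, unlike in the window counts. Spearman correlations of tag count rank across the elements were 0.96 between the FT libraries, 0.90 between the Sham libraries and 0.93 between Sham and FT of replicate 1. These are descriptions across elements, which are not independent and share their library.

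Rank shifts at shared elements followed the same regions as the windows. At 1109 shared elements that touch the hypothalamic set, the median maxScore rank was at the 26.3rd and 25.9th percentile in Sham and at the 41.2nd and 41.2nd in FT. Both FT ranks exceeded both Sham ranks at 718 of these elements (64.7%), as against 7088 of all 28997 shared elements (24.4%), and both Sham ranks were higher at 50 (4.51%), as against 26.1% of all. The replicate and crossed splits gave between 6.22% and 9.92% for each side at the same 1109 elements. At 3065 elements that touch the brainstem set the median was at the 56.2nd and 60.1st percentile in Sham and the 48.4th and 49.1st in FT, with both Sham ranks higher at 1575 (51.4%) and both FT ranks higher at 214 (6.98%). Each difference of medians had an exact permutation p of 0.333, the smallest possible. Leaving out any one library gave differences from 14.9 to 15.3 points at the hypothalamic elements and from -11.4 to -7.43 at the brainstem elements.

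The tag count showed the shift at elements of the hypothalamic set with less force. Its median rank was at the 27.8th and 21.9th percentile in Sham and averaged the 32.0th in FT, with both FT ranks higher at 670 elements (60.4%), as against 25.6% of all shared elements. The difference of medians was 7.13 points, and 4.18 without Sham replicate 2. At the brainstem elements the tag count medians of the groups overlapped, at 50.2 and 55.4 in Sham and 50.9 and 47.7 in FT. Elements common to arc, VMH, Raphe and Snt (10835) had maxScore medians of 78.6 and 77.6 in Sham and 79.9 and 79.7 in FT, a difference of 1.71 points.

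**Figure D5:**
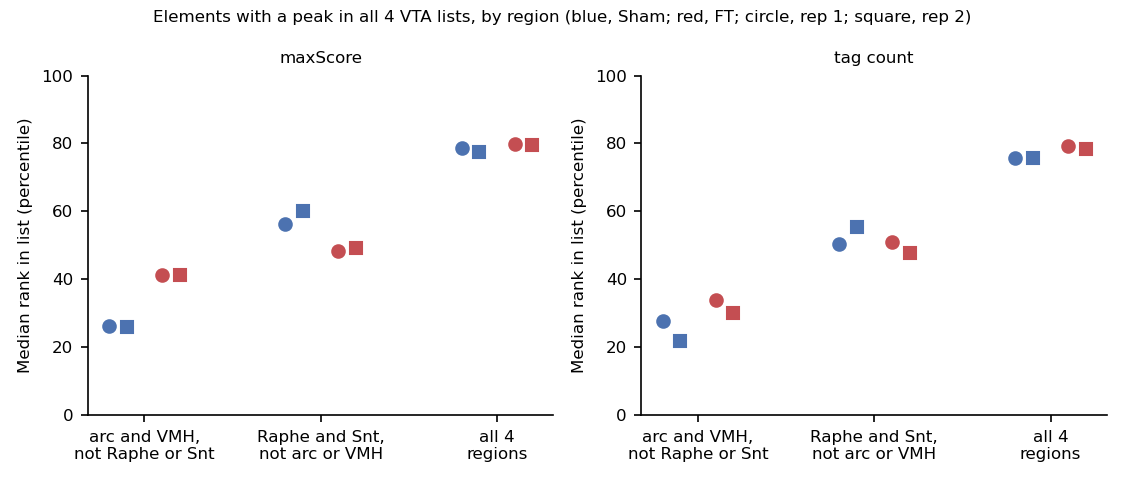
Median rank (percentile within a list) of elements with a peak in all 4 VTA lists, by maxScore (left) and tag count (right), for elements that touch windows of arc and VMH, of Raphe and Snt, or of all 4 regions (blue, Sham; red, FT; circles, replicate 1; squares, replicate 2). By maxScore the arc and VMH elements stand at 26.3 and 25.9 in Sham and 41.2 in both FT libraries, and the Raphe and Snt elements are higher in Sham.

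The elements of lowest p in the tag count test reflected how peaks were divided. An element sums its peaks, and each of the 5 that led in the FT direction held 1 peak in each Sham list and 2 in each FT list. The first, chr7:137561402-137565901, had tag counts of 22 and 14 in Sham and 47 and 47 in FT, a log2 difference of 0.93 ± 0.10 (SE, limma adjusted p = 0.160), while its highest maxScore was 519 and 313 in Sham and 535 and 459 in FT. The others were chr2:58142165-58147164, chr8:47660925-47666963, chr13:107428772-107433400 and chr1:195180091-195185990, with log2 differences from 0.83 to 0.96. The 5 that led in the Sham direction held 2 peaks in each Sham list and 1 in each FT list. They were chr15:91375102-91378915 (tag counts 42 and 29 in Sham, 22 and 22 in FT), chr13:54997701-55002600, chr10:75793015-75797611, chr3:8632212-8636711 and chr4:224455611-224460863, with log2 differences from -1.10 to -0.87. The second of these overlaps the FT locus at chr13:55001001-55003000 described above: the Sham lists have there 2 peaks and the FT lists 1 peak that reaches farther, so windows and tag counts point in opposite directions at the same place. Among the 28753 elements with 1 peak in every list, limma likewise called 0, with 1505 higher in FT and 1460 lower at an unadjusted p under 0.05.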

How the data were processed

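H3K27ac ChIP-seq lists of 4 VTA libraries were analysed, with 90 lists of other regions as comparison. The authors aligned reads to Rn5 (BWA is named in the submitters' processing notes), and DFilter was run for every library by itself, without pooling. Tool versions were not stated. The deposited lists give maxScore and the normalised tag count as scores, a −log10 p-value from 4 to 200 and a false discovery rate in percent that was 0 for every peak. No counts of reads were used, so depth is unknown and no counting interval was computed. Each replicate is a pool of punches, and Sham and FT of one replicate number were handled in parallel, so p-values measure the spread between pools.

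Windows of 1 kb were called occupied at 50% cover. Splits were compared by exact permutation (two-sided). Elements were merged overlapping peaks, with tag counts summed and the highest maxScore kept. Rounded tag counts were spread evenly within their rounding step (fixed seed) before limma 3.58.1 in R 4.3.3, because the planned test had assumed unrounded values. The simulations kept here do not cover tied values. Without this step the test called 1601 elements. Benjamini-Hochberg adjustment was over all 28997 elements. Window splits were tested on simulated lists. Python 3.11.15, numpy 2.4.6 and pandas 2.3.3 were used.

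Loci named are the 5 with most windows per direction among those separating on full and equal-size lists, plus 3 per direction occupied in no other region, ties going to the higher maxScore percentile; elements named are the 5 of lowest p per direction. The libraries, window sets and measures were chosen with earlier results of these data known. Sham and FT of a number did not deviate together (correlation of window occupancy deviations -0.004), and a replicate block was run as an alternative. Gene names, sequences and marker lists were not used, since no annotation of Rn5 was at hand.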

Additional observations from a re-analysis of the deposited data

Results flagged for a closer look

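The hypothalamic window set was occupied more in FT than in Sham in VTA, by 34.5 percentage points on lists of 19378 peaks, whereas in PVN, with 1 library per treatment, FT was lower. Among the 10000 best peaks the VTA difference was 3.83 points, and the libraries of InsularCortex, LC, LH and PVN were ordered the opposite way. The brainstem set among the 10000 best peaks differed by -8.47 points in VTA (FT minus Sham), and in 10 other regions, 8 of them with 2 libraries per treatment, every FT library was above every Sham library. These differences between regions were not tested.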

How the results depend on the processing

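Peak number, covered length and width kept their direction under every alternative run, with log2 ratios from 0.14 to 0.53, 0.17 to 0.62 and 0.09 to 0.18 when single libraries were left out, but the width ratio fell from 0.13 to 0.04 (exact permutation p = 1) at a −log10 p of at least 6. The log2 split ratio stayed above 0 on full lists (0.13 to 1.31 without single libraries). On equal-size lists it ran from -0.058 to 1.37 without single libraries: the log2 ratio was -0.058 when FT replicate 1 was left out and -0.054 when FT replicate 2 was. With the replicate block, which leaves the crossed split as the only comparison, the ratios were 1.39 on full and 1.30 on equal-size lists, and the block changed no other direction. The share of FT among separating windows ranged, on equal-size lists, from 93.6% for windows covered in full and 96.4% for 5 kb windows to 59.0% for the 10000 best peaks, and, in alternatives added after seeing the data, 53.4% for 5000 peaks and 51.0% for the centres of the 10000 best. On full lists it was 84.9% for peak centres. Activity in at least 2 libraries of another region lowered the shares to 98.5% of FT and 98.8% of Sham windows. The tag count test called 0 elements, 14 under median scaling, 19 with a pseudocount of 10, 9 when elements of low tag count were dropped, 0 with the replicate block, and from 0 to 860 when a library was left out (860 without Sham replicate 1, 35 without Sham replicate 2, where the lone sample is assumed to vary like the others). It called 1601 without spreading the rounded values, a form that the simulations kept here do not cover. maxScore, added after seeing the data, gave 0, and 3780 and 231 without Sham replicates 1 and 2. The hypothalamic difference of 35 points on equal-size lists was 3.83 among the 10000 best peaks. The brainstem difference of 6.54 points on equal-size lists was -6.89 on lists of 19378 peaks and -8.47 among the 10000 best. Where not stated, the cause was not tested. Unknown depth and 2 pools per treatment limit every comparison.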
